A study of Mus musculus with 4 samples.

Results

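Among mesenchymal stromal cells of the embryonic mouse intestine, the cells caught in or close to mitosis were examined. They were found by a rule on 6 transcripts of late G2 and M phase, *Ccnb2*, *Cdkn3*, *Cenpa*, *Knstrn*, *Plk1* and *Cdc20*. A cell counted as a mitotic mesenchymal cell when at least 4 of the 6 genes had a unique molecular identifier (UMI, a tag that counts single captured transcripts) and when it had no UMI of *Upk3b*, which marks mesothelium, or of *Sox10* or *Prph*, which mark glia and neurons. Of 23188 cells kept across 4 libraries, 3724 met the rule, namely 634 and 686 cells of the large intestine (LI, replicates 1 and 2) and 1236 and 1168 cells of the small intestine (SI). They were compared within each library with 9438 cells that had no UMI of any of the 6 genes or of the 3 excluded ones. Another 7583 cells had 1 to 3 of the 6 genes, and 2443 cells with *Upk3b*, *Sox10* or *Prph* stood outside both classes.

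The study sequenced sorted stromal cells of untreated embryos at stage E12.5 of gestation, in 2 libraries of SI and 2 of LI, to ask which precursors of adult intestinal stroma are present that early. Embryos carried the EYFP (C57BL/6) background in all 4 libraries, and each library pooled several embryos, so single embryos cannot be told apart. Cells had been sorted as live, YFP+ and Itgb1+, and as CD45-, Ter119-, CD31- and EpCAM-, gates that remove leukocytes, erythroid cells, endothelium and epithelium by surface protein. The tissue labels name the lamina propria of the small intestine or the colon, whereas the titles give E12.5, which was followed here.

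Libraries held 5151 to 6881 barcodes and 31630548 to 62886525 UMIs, and LI replicate 1 was the shallowest, at 4278.5 UMIs in its median cell against 8518 to 8932 in the other 3. Between 8 and 15 barcodes were shared by any pair of libraries. The sorted cells were stromal: 24 mesenchymal genes summed to between 3669 and 4633 CPM (counts scaled by the sum of a class in a library to 1000000) in the mitotic cells and to between 4141 and 5445 CPM in the comparison cells. Of markers of other cells, those of leukocytes summed to between 4.08 and 6.99 CPM in the mitotic cells, with *Ptprc*, which encodes CD45, at 0 UMIs. Endothelial markers reached between 40.8 and 47.9 CPM, erythroid markers between 2.95 and 40.4 CPM and mesothelial markers between 31.6 and 46.3 CPM, with *Msln* at 0. The corresponding ranges in comparison cells were 6.30 to 13.5, 42.2 to 64.8, 2.08 to 9.26 and 40.3 to 59.5 CPM. Neural markers other than *Sox10* and *Prph* summed to between 179 and 233 CPM in mitotic and between 84.5 and 261 CPM in comparison cells. Epithelial markers summed to between 24.9 and 110 CPM in mitotic and between 16.3 and 146 CPM in comparison cells. Both are taken up below.

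Cells that divide copy their DNA in S phase, grow through G2 and then enter mitosis, which cyclin B and CDK1 start, Polo-like kinase 1 and the Aurora kinases carry forward, and the anaphase-promoting complex with its activator Cdc20 ends by destroying cyclins and securin. Many genes of this last stretch share promoter elements. These are the cell cycle gene homology region, with the core letters TTTGAA, and the CCAAT box, which binds NF-Y. Gut mesenchyme at this stage expands beneath the epithelium while its outer layer begins to form smooth muscle.

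To show these elements in the 6 genes by which the cells were chosen, and in *Ube2c* and *Epcam*, which carry later results, 150 bases of each promoter are given from RefSeq on GRCm38.p6, from 120 bases before the start to 30 after it. Capitals mark TTTGAA or its reverse TTCAAA, and CCAAT or its reverse ATTGG. The stretches lie at chr9:70421525-70421674 (minus strand) for *Ccnb2*, chr14:46760421-46760570 (plus) for *Cdkn3*, chr5:30666766-30666915 (plus) for *Cenpa*, chr2:118813883-118814032 (plus) for *Knstrn*, chr7:122159315-122159464 (plus) for *Plk1*, chr4:118437314-118437463 (minus) for *Cdc20*, chr2:164769809-164769958 (plus) for *Ube2c* and chr17:87635859-87636008 (plus) for *Epcam*.
Ccnb2: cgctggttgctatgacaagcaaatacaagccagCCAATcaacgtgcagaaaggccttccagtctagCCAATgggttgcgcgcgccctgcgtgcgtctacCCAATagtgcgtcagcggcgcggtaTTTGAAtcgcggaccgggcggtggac
Cdkn3: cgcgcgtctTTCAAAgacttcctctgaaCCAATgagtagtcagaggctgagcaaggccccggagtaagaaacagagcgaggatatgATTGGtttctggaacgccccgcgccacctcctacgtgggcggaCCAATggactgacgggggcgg
Cenpa: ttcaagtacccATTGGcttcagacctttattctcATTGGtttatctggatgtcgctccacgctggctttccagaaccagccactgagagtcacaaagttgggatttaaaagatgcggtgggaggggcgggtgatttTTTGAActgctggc
Knstrn: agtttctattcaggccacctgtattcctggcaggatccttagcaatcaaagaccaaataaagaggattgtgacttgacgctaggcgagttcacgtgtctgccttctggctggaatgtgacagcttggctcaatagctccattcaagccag
Plk1: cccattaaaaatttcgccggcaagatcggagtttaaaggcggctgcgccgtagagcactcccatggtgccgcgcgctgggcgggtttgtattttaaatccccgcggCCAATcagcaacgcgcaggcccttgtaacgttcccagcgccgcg
Cdc20: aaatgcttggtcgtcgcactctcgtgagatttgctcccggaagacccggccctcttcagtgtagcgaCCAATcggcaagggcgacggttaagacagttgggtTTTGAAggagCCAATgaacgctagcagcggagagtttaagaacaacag
Ube2c: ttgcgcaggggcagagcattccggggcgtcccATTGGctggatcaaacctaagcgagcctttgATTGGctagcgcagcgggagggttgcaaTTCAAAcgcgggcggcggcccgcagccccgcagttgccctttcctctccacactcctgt
Epcam: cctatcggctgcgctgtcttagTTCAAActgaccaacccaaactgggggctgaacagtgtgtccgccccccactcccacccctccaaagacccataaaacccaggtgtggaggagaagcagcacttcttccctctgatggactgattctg

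Both motifs were searched on both strands over 300 bases, 250 before the start and 50 after it, and the pair can overlap by 1 letter at most. Over the 27025 genes in the promoter table, 20.2% held TTTGAA, 41.1% held CCAAT and 7.97% held both. Of the 6 genes that chose the cells, 5 held both, and *Knstrn* held neither. The TTTGAA of *Plk1* starts at position 31, just past the stretch printed. Among 98 of the 119 genes on the mitosis lists below that had a promoter entry, 53 (54.1%) held TTTGAA, 65 (66.3%) held CCAAT and 41 (41.8%) held both. Of 51 clustered histone genes with an entry, 24 (47.1%) held TTTGAA and 42 (82.4%) held CCAAT. The *Epcam* promoter held TTCAAA at position -98 and no CCAAT. A match gives letters only and says nothing of binding.

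The cells were chosen by the detection of the 6 genes, whose values are given as a description. *Cenpa*, the histone variant of centromeres, was detected in 98.9% to 99.4% of mitotic cells per library, at 4.27 to 10.3 UMIs per cell. *Cdc20* was detected in 91.6% to 93.0%, *Ccnb2* (cyclin B2) in 82.6% to 92.0%, *Knstrn*, a spindle and kinetochore adaptor, in 77.3% to 89.2%, and *Plk1* in 71.5% to 80.5%. *Cdkn3*, a phosphatase that acts on CDKs, was the least often seen, in 30.7% to 35.3% of cells. The distribution over 0 to 6 genes had no gap at the threshold: just outside it, cells with 3 of the genes made up 6.18% to 10.7% of the mesenchymal cells in each library, and just inside it cells with 4 made up 5.57% to 10.5%.

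**Figure D1:**
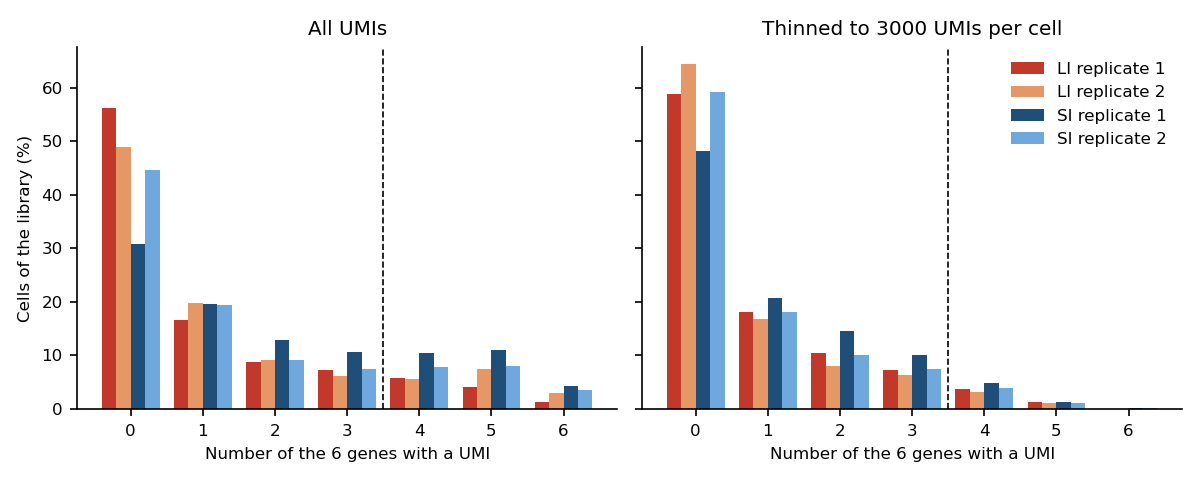
Share of each library's cells without *Upk3b*, *Sox10* or *Prph* (y axis, %) by how many of the 6 mitotic genes had a UMI (x axis), with all UMIs on the left and after thinning every cell to 3000 UMIs on the right. Colours are the 4 libraries and the dashed line is the threshold of 4 genes. The shares of cells with 4 or more genes are lower after thinning in all 4 libraries.

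Because the rule asks for detection, it favours deeply read cells. The median UMI count of mitotic cells was 1.54 to 1.82 times that of comparison cells in the same library, and their median number of genes 1.33 to 1.48 times as high. Whether more RNA per cell in G2 and M phase or depth as such set this ratio was not tested. Cells with high doublet scores made up 6.31% to 10.4% of mitotic and 1.22% to 3.51% of comparison cells. For these reasons values are also given where comparison cells were matched to mitotic cells on UMIs, where every cell was thinned to 3000 UMIs before the classes were formed, or where doublets were left out, for the results that this changed most.

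Since the 2 classes were cut from UMIs of the same cells that were then compared, the differences between them are descriptions. The adjusted p of edgeR, fitted on sums of cells over the 4 libraries with library as a block, says only how steady a difference was from library to library. A gene is called higher or lower at an adjusted p under 0.05. Over 12810 genes tested, 2669 (20.8%) were called higher in mitotic cells and 2843 (22.2%) lower, 5512 (43.0%) in all, with a median log2 fold change of -0.03 over all genes. The shares higher and lower were 14.8% and 17.4% with matched UMIs, 8.67% and 6.92% after thinning and 6.07% and 5.87% without the block, and counts under these settings are to be read beside them. Of these, 379 were higher and 316 lower by more than 1 on the log2 scale.

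The rest of the mitotic programme rose with the 6 genes. Of 119 further genes on 7 mitosis lists, 118 were tested and 115 were higher in mitotic cells, none lower, with a median log2 fold change of 3.15. The 3 that did not pass were *Mybl2*, a transcription factor of the same programme, at 0.45, *Pttg1*, which encodes securin, at 0.09, and *Anapc4*, a subunit of the anaphase-promoting complex, at -0.06. As genes of mitosis rise and fall together in a cell, this follows closely from how the cells were chosen.

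Of 16 genes of mitotic entry, 15 were higher (median 3.56). *Ccnb1*, cyclin B1, stood at 436 and 324 CPM in LI and 303 and 305 CPM in SI mitotic cells, against 11, 5.02, 10.9 and 5.42 CPM in comparison cells of the same libraries, so that no library of one class came near the other. Its log2 fold change was 5.56 (SE 0.14). *Hmmr*, a microtubule-binding spindle protein, differed by 5.61 (SE 0.17), *Cdc25c*, the phosphatase that activates CDK1, by 5.28 (SE 0.16) and *Tpx2*, which activates Aurora A, by 4.90 (SE 0.12).

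All 14 genes of the chromosomal passenger complex and the spindle checkpoint were higher (median 3.67). *Birc5* (survivin) stood at 505 to 623 CPM in mitotic and at 21.0 to 55.7 CPM in comparison cells. Its log2 fold change was 4.13, beside 4.15 for *Cdca8* (borealin), 4.20 for *Bub1b* (the checkpoint kinase-like protein BubR1) and 4.27 for *Sgol2a*, a shugoshin that guards cohesin at centromeres. All 29 kinetochore and centromere genes were higher too, with a lower median of 2.42. *Cenpf* led them at 5.58, from 708 to 1214 CPM in mitotic cells and from 13.8 to 36.1 CPM in comparison cells, and the motor *Cenpe* (4.76) and the outer kinetochore scaffold *Casc5* (4.18) were among the others.

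Condensin and chromosome structure gave 11 of 11 genes higher, with a median of 2.48. *Top2a*, which untangles sister DNA, stood at 847 to 1106 CPM against 50.8 to 137 CPM (log2 fold change 3.62), *Mki67*, the coat of mitotic chromosomes, at 360 to 441 CPM against 19.0 to 38.7 CPM (3.92), the chromosome-bound kinesin *Kif4* differed by 4.37 and the condensin subunit *Ncapg* by 3.56. The 20 genes of spindle motors and microtubule factors were all higher (median 3.83). *Kif14* (5.24), *Nusap1* (5.20), *Kifc1* (4.80) and *Kif2c* (4.79) led. The *Kifc1* value is uncertain, as a near-identical copy (*Kifc5b*) can share its reads.

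Cytokinesis had the highest median, 4.15, with 10 of 10 genes higher. *Pif1*, a DNA helicase placed on that list, differed by 5.97, from 19.5 to 40.4 CPM against 0.285 to 0.673 CPM, *Kif23*, a motor of the central spindle, by 5.25, *Kif20a* by 4.90 and the midzone bundler *Prc1* by 4.71. Exons of *Kif20a*, *Prc1*, *Kif4*, *Nusap1*, *Ncapg*, *Sgol2a* and *Cdc25c*, of *Cdc20* and *Knstrn* among the genes of the rule, and of *Ube2c* and *Lockd* described next overlap a gene on the other strand, so that such reads cannot be told apart where strand is not used. The same holds for *Ccnd1*, *Ccne2*, *Coro1a*, *Des*, *Egfl7*, *Elf3*, *Hist2h3b*, *Mxd4*, *Pdgfra*, *Phox2a*, *Tagln* and *Zeb2* below, and *Egfl7* and *Pitx1* overlap a gene on their own strand.

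Anaphase and mitotic exit had 16 of 18 genes higher but the lowest median, 0.41. Its members split: the E2 enzyme *Ube2c*, which the anaphase-promoting complex uses to tag cyclins, stood at 1211, 1181, 1220 and 1181 CPM in mitotic cells against 30.1, 16.5, 33.3 and 21.1 CPM, a log2 fold change of 5.70 (SE 0.14) and nearly the same level in every library. *Espl1* (separase) differed by 4.31, *Cks2*, a small partner of CDK1, by 3.45 and *Fbxo5*, an inhibitor of the complex, by 2.25. The remaining genes of that list lay lower, down to *Anapc4*. Without the block 9 of the 18 were higher and after thinning 11, with none lower. Outside the lists, the 10 genes with the greatest rise at a mean log2 CPM above 5 also took in *Depdc1a* at 5.21 and the noncoding RNA *Lockd*, next to *Cdkn1b*, at 5.02.

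**Figure D2:**
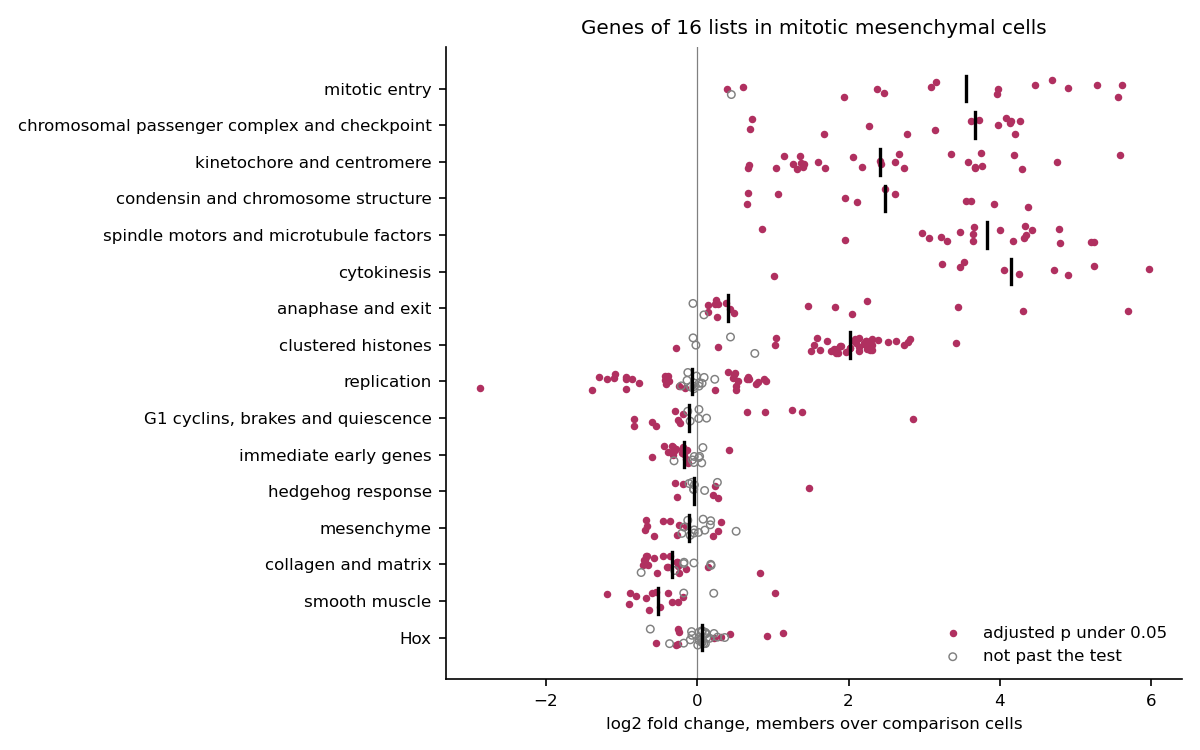
Log2 fold change of mitotic over comparison cells (x axis) for each gene of 16 gene lists (y axis). Filled points passed edgeR's adjusted p of 0.05 and open points did not. Genes of the mitosis lists sit almost wholly to the right of 0, replication genes on both sides, and smooth muscle and matrix genes mostly to the left.

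Genes of DNA replication went in both directions. Of 46 tested, 15 were higher and 18 lower, beside 20.8% and 22.2% of all genes, with a median log2 fold change of -0.06. *Ung*, the uracil-DNA glycosylase, stood at 6.57 and 9.80 CPM in LI and 8.85 and 8 CPM in SI mitotic cells against 70.6, 46.6, 97.8 and 54.3 CPM in comparison cells, with no overlap, and its log2 fold change was -2.88 (SE 0.16, edgeR adjusted p 3.85e-07). *Mcm6*, a subunit of the replicative helicase, fell from between 159 and 231 CPM to between 52.8 and 77.5 CPM (-1.39). *Ccne2* (cyclin E2, -1.29), *Cdc6* (-1.19), *Mcm2* (-1.09), *Cdt1* (-0.95), *Mcm4* (-0.94) and *Chaf1b* (-0.94) also fell.

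Comparison cells were not free of S phase: 38.9% to 70.0% of them per library had at least 3 of 8 S phase genes, all of them on the replication list. Among mitotic cells, which were read more deeply, the share was 51.1% to 84.8%, higher in every library. Leaving cells with at least 3 of these genes out of the comparison class alone lowers the replication level there by construction, so the values that follow are no test of the split. With them left out, 38 of the 46 replication genes were higher in mitotic cells and 2 lower, beside 21.6% and 22.0% of all genes, with a median of 1.12. *Ung* was still lower at -1.39, *Mcm6* stood at -0.23 and did not pass, and *Cdc6* (1.69), *Ccne2* (0.64) and *Chaf1b* (0.25) changed sign. With cells matched on UMIs, 3 were higher and 30 lower (median -0.44).

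Clustered histone genes, whose messages are made in S phase, were mostly higher. Of 57 listed, 47 were tested and 42 were higher and 1 lower, beside 20.8% and 22.2% of all genes, with a median of 2.02. *Hist1h3c* stood at 57.9 to 84.3 CPM in mitotic and 5.69 to 20.9 CPM in comparison cells (2.82), *Hist1h2ab* at 37.0 to 66.4 CPM and 4.95 to 13.1 CPM (2.78), while *Hist1h3b* (2.73) and *Hist2h3b* (3.43) lay below 5 CPM in all libraries. The single lower gene was *Hist3h2ba* at -0.29, which turned to 0.09 with matched UMIs. After thinning, 31 were tested and 20 were higher, beside 8.67% of all genes, with a median of 0.87. Most of these messages lack the poly(A) tail that this assay captures, and near-identical copies can share reads, so single values are uncertain.

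*Hist1h2bc* (chr13:23684199-23692908) and *Hist1h1c* (chr13:23738808-23740367), an H2B and the linker histone H1.2 of the same cluster, can also be made with a poly(A) tail. *Hist1h2bc* stood at 25.2 and 42.9 CPM in LI and 33.7 and 39.5 CPM in SI mitotic cells, against 10.7, 8.69, 16.2 and 11 CPM in comparison cells. The classes did not overlap, and the log2 fold change was 1.72 (SE 0.17, edgeR adjusted p 3.60e-05). *Hist1h1c* stood at 36.3, 48.5, 33.3 and 41.9 CPM against 20.4, 9.79, 10.8 and 8.66 CPM, without overlap, at 1.88 (SE 0.19, edgeR adjusted p 4.03e-05). After thinning the difference of *Hist1h1c* was smaller, 0.87, and in SI replicate 1 its levels were alike, 18.4 CPM in mitotic and 18.2 CPM in comparison cells. That of *Hist1h2bc* was 1.57 there, but 2.80 with matched UMIs and 1.17 against comparison cells without S phase.

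Over cells with 0 to 6 of the genes, both histone genes were highest in the middle and not at the end. *Hist1h2bc* reached its highest level at 2 to 4 genes in every library, 37.9 CPM in LI replicate 1 and between 62.8 and 70.9 CPM in the other 3, and stood at 5.33 to 29.1 CPM in cells with all 6, the lowest, in LI replicate 1, resting on 3 UMIs. *Hist1h1c* likewise peaked at 2 to 4 genes, between 42.6 and 77.3 CPM, and stood at 21.3 to 26.1 CPM with all 6. *Ccnb1*, by contrast, rose at every step in all 4 libraries, to between 421 and 506 CPM with all 6 genes, and *Ube2c* to between 1596 and 1763 CPM. *Top2a* had reached 677 to 913 CPM with 3 genes and stood at 904 to 1139 CPM with 6. *Mcm6* fell from between 159 and 231 CPM with 0 genes to between 28.4 and 51.9 CPM with 6.

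**Figure D3:**
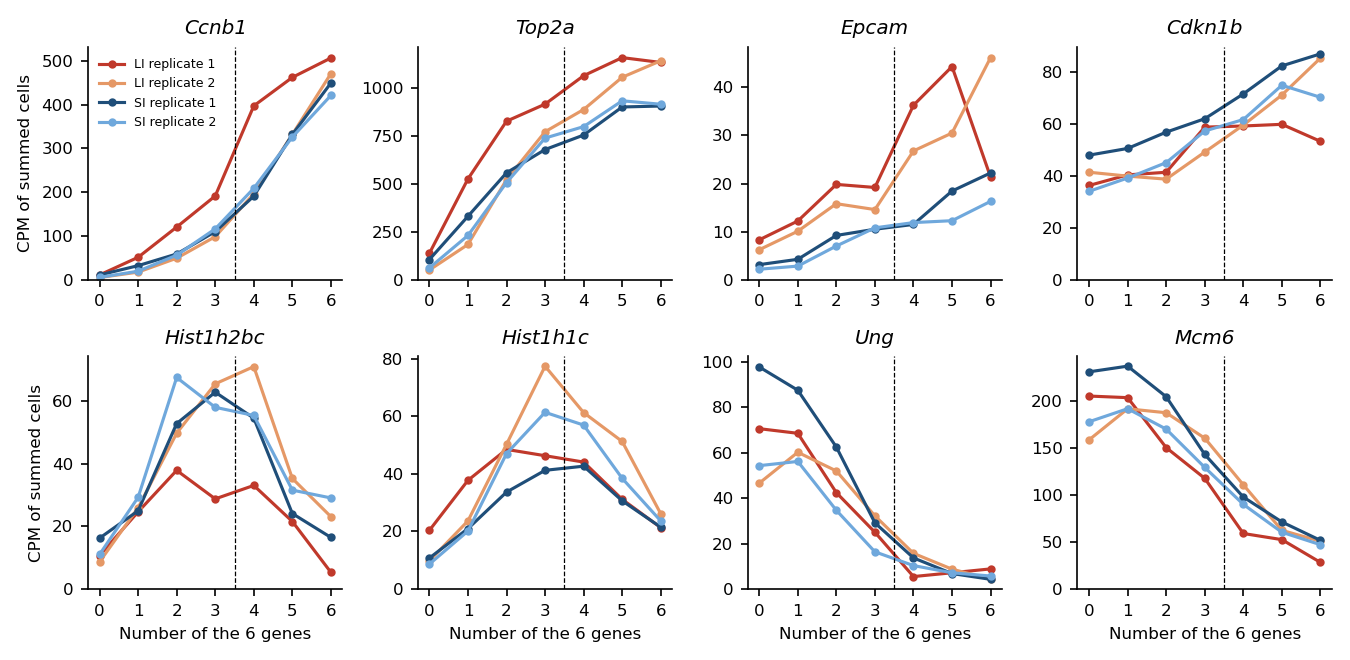
Level in CPM (y axis) of 8 genes in sums of cells by number of the 6 mitotic genes detected (x axis), 1 line per library, with the threshold dashed. *Ccnb1* and *Top2a* rise, *Hist1h2bc* and *Hist1h1c* are highest at 2 to 4 genes, and *Ung* and *Mcm6* fall.

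*Epcam* (chr17:87635979-87651129), the epithelial adhesion molecule against whose protein the cells were sorted, was also higher in mitotic cells. It stood at 37.4 and 32.9 CPM in LI and 16.6 and 13 CPM in SI mitotic cells, against 8.29, 6.24, 3.14 and 2.19 CPM in comparison cells. Within each library mitotic cells were higher, and even the lowest mitotic value exceeded the highest comparison value. The log2 fold change was 2.46 (SE 0.09, edgeR adjusted p 1.83e-08). It was 3.28 with matched UMIs, 3.03 after thinning, and 2.21 against comparison cells without S phase.

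An *Epcam* UMI was found in 18.9% (95% Wilson interval 16.1% to 22.2%) and 23.8% (20.7% to 27.1%) of LI mitotic cells and in 12.9% (11.2% to 14.9%) and 11.6% (9.85% to 13.5%) of SI mitotic cells. In comparison cells the shares were 2.91% and 4.17% in LI and 2.24% and 1.68% in SI. Thinned to 3000 UMIs, they were 12.8%, 10.0%, 8.44% and 6.92% in mitotic and 1.99%, 2.07%, 1.14% and 0.715% in comparison cells. Thinning also redrew the classes, to 190 to 318 mitotic cells per library, so these are not the same cells. Intervals cover counting error only.

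The signal was thin per cell: of mitotic cells with *Epcam*, 53.4% to 72.5% had a single UMI. The number of other epithelial markers detected per cell had a median of 0 in mitotic cells with and without *Epcam*. The mean number was higher in the cells with *Epcam* in each of the 4 libraries, at 0.375, 0.436, 0.212 and 0.119 markers per cell against 0.323, 0.241, 0.171 and 0.0833, a difference that was not tested. *Krt18*, a keratin that mesothelium also makes, was lower in mitotic cells (60.8, 21.7, 17.8 and 8 CPM against 118, 32.2, 26.4 and 10.1 CPM, log2 fold change -0.56), *Krt8* and *Elf3* did not pass the test, and the other 6 of 10 epithelial markers were too low to be tested. Summed over the 10 markers, levels were 110, 60.4, 40.9 and 24.9 CPM in mitotic and 146, 46.4, 37.5 and 16.3 CPM in comparison cells. With *Epcam*+ cells left out, an alternative chosen after the data were seen, *Hist1h1c* stood at 1.97 and *Hist1h2bc* at 1.63.

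The same was counted in mesothelial and neural cells of these libraries, without a test. Among cells with *Upk3b*, those with at least 4 mitotic genes (25 to 60 per library) had an *Epcam* UMI in 21.7%, 48.7%, 41.2% and 48.0%, at 61.4 to 102 CPM, against 6.31%, 8.72%, 8.52% and 8.15%, at 11.5 to 14.8 CPM, in those with none. Among cells with *Sox10* or *Prph* and at least 4 mitotic genes (49 to 141 per library), the shares were 2.04%, 2.75%, 4.27% and 4.26%, at 1.03 to 3.07 CPM and median depths of 14346 to 25788 UMIs. In *Sox10* or *Prph* cells with none of the genes, *Epcam* was found in 0 of 22, 2 of 34, 0 of 37 and 0 of 76 cells, too few to set a level. Whether free RNA added to these shares was not tested.

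**Figure D4:**
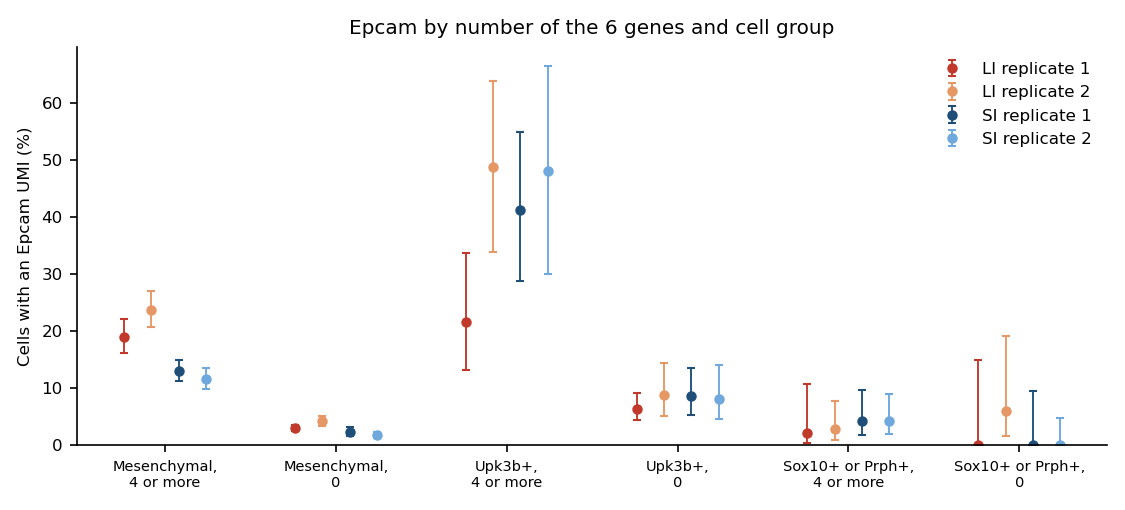
Share of cells with an *Epcam* UMI (y axis, %, all UMIs) with 95% Wilson intervals in 6 groups of cells (x axis): mesenchymal, *Upk3b*+ and *Sox10*+ or *Prph*+ cells with 4 or more or with none of the 6 mitotic genes. Colours are libraries. In mesenchymal and *Upk3b*+ cells the shares are higher with 4 or more genes in every library.

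Along the number of mitotic genes, *Epcam* rose from between 2.19 and 8.29 CPM with 0 genes to between 10.5 and 19.2 CPM with 3 and between 11.5 and 36.3 CPM with 4. With all 6 it stood at 46.2 CPM in LI replicate 2, 22.2 CPM in SI replicate 1 and 16.3 CPM in SI replicate 2, the highest points of those libraries. In LI replicate 1 it was 44.3 CPM with 5 genes and 21.3 CPM with 6, the last resting on 12 UMIs.

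Of 18 tested G1 cyclins, brakes and quiescence genes, 5 were higher and 8 lower, beside 20.8% and 22.2% of all genes, with a median of -0.11. Without the block 5 were higher and 2 lower. Inhibitors of CDKs were among those higher. *Cdkn1b*, which encodes the CDK inhibitor p27, stood at 58.7, 71.0, 79.3 and 69.2 CPM in mitotic cells against 36.3, 41.4, 48.0 and 34.1 CPM, without overlap, at a log2 fold change of 0.90 (SE 0.06, edgeR adjusted p 8.49e-07). *Cdkn2d*, which encodes p19, an inhibitor of CDK4 and CDK6, stood at 35.1 to 53.4 CPM against 15.4 to 23.3 CPM (1.39) and *Cdkn2c*, encoding p18, at 0.907 to 5.73 CPM against 0.242 to 1.35 CPM (2.86, low counts). *Ccng2* (cyclin G2) differed by 1.25 and the pocket protein *Rbl1* by 0.66, or by 0.05 after thinning, where it did not pass. On the other side, the lowest value on the list was -0.84. Not on this list, *Mxd4*, a Max partner of resting cells, was among the genes that fell most, at 38.9 to 43.0 CPM against 97.5 to 118 CPM (-1.25), with *Pbxip1*, also not on it, at -1.10.

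Immediate early genes were mostly lower: 15 of 24 against 1 higher, beside 22.2% and 20.8% of all genes, with a median of -0.18. Without the block none was lower and 1 higher. *Btg2*, which slows proliferation, stood at 126, 391, 134 and 264 CPM against 220, 705, 195 and 384 CPM (-0.60), a fall in each of the 4 libraries that differed more among themselves. *Ier3* fell by 0.44 and *Atf3* by 0.39, while *Klf6* was higher by 0.42. These genes answer to tissue digestion as well as to growth factors, and which applied was not tested.

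Of 16 smooth muscle genes, 13 were lower in mitotic cells and 1 higher, beside 22.2% and 20.8% of all genes, with a median of -0.52. *Myh11*, the smooth muscle myosin heavy chain, stood at 2.04 and 31.2 CPM in LI and 28.3 and 147 CPM in SI mitotic cells, against 7.01, 60.3, 80.1 and 355 CPM in comparison cells. It was lower in each library, while libraries of the same region differed by more than the classes did, and its log2 fold change with library as a block was -1.20 (SE 0.09, edgeR adjusted p 4.07e-06). *Lmod1* (-0.91) and *Tagln* (-0.88, 177 to 430 CPM against 323 to 839 CPM) went the same way. *Smtn*, smoothelin, was the exception at 46.2, 41.6, 37.7 and 51.0 CPM against 14.3, 20.1, 22.3 and 33.6 CPM, a rise of 1.03 (SE 0.14, edgeR adjusted p 0.000305). Without the block, 1 gene of the list was higher and none lower. When cells with 3 or more of 6 smooth muscle genes were left out of both classes, 14 were tested, 8 were lower and 1 higher (median -0.31), and *Smtn* differed by 1.51.

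The share of mitotic cells was also taken among smooth muscle cells. At 3000 UMIs per cell, 2.41%, 3.99%, 4.81% and 3.90% of cells with 3 or more of *Acta2*, *Actg2*, *Tagln*, *Cnn1*, *Myh11* and *Des* met the mitotic rule, against 5.52%, 4.57%, 6.78% and 6.15% of the other mesenchymal cells of the same library. The share was lower in 4 of 4 libraries, by -1.98 percentage points on average (SD 1.05), and the 2-sided exact sign-flip test gave the smallest p that 4 libraries allow, which is above 0.05. At 2000 UMIs the difference was -0.79 points. Cells with *Adamdec1* and *Bmp3* or with 2 or more of *Foxd1*, *Foxc1* and *Foxc2* numbered 0 to 21 per library at 3000 UMIs, and those with 2 or more of *Tac2*, *Wnt4* and *Slit2* 21 to 85, too few to compare. With 1 or more of *Tac2*, *Wnt4* and *Slit2*, 397 to 747 cells per library, the mitotic share was 6.04% and 5.62% in LI and 3.53% and 3.75% in SI, against 5.21%, 4.32%, 6.52% and 5.37% of the other cells, higher in both LI libraries and lower in both SI libraries. The mean difference was -0.62 points (SD 2.04, 2-sided exact sign-flip p 0.625). With *Adamdec1* or *Bmp3*, 59 to 223 cells, it was lower in 3 of 4 libraries, by -0.97 points on average (SD 1.40, 2-sided exact sign-flip p 0.375). With 1 or more of the *Fox* genes there were 19 to 96 cells, still too few.

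Of 26 genes of collagen and matrix, 17 were lower and 2 higher, beside 22.2% and 20.8% of all genes, with a median of -0.33. Without the block 1 was lower and 1 higher, and after thinning 11 of 25 were lower and 1 higher. *Dcn* (decorin) stood at 19.0 to 23.1 CPM against 24.1 to 55.3 CPM (-0.71), *Tnc* (tenascin C) at -0.72 and *Col6a3* at -0.69. *Fbln1* (fibulin 1) was higher, at 110 to 141 CPM against 54.6 to 88.7 CPM (0.83), and *Vcan* (versican) differed by 0.15, or by -0.04 with matched UMIs. The collagen gene *Col9a2*, which was not on this list, stood at 18.6 to 29.1 CPM against 39.1 to 82.9 CPM (-1.18), among the 10 genes that fell most.

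Of 24 mesenchymal genes, 9 were lower and 3 higher (median -0.11), beside 22.2% and 20.8% of all genes. Without the block none of the 24 passed, and after thinning 7 of 23 were lower and 1 higher. *Col1a2* (-0.67) and *Col6a1* (-0.67) were among the first, and the second were *Zeb2* (0.32, and -0.22 with matched UMIs), the gut homeobox gene *Nkx2-3* (0.27) and *Pdgfra*, the growth factor receptor of fibroblasts (0.21). The 3 genes of an outer fibroblast type, *Tac2* (-1.27), *Wnt4* (-0.63) and *Slit2* (-0.37), were lower. None of these 3 passed after thinning or without SI replicate 2 (-0.95, -0.52 and -0.31). A single gene of the 3 passed without SI replicate 1, without the block, against comparison cells without S phase, or with *Epcam*+ cells left out.

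Hedgehog signals from the gut epithelium act on this mesenchyme. Of 14 genes of the response, 4 were higher and 3 lower, beside 20.8% and 22.2% of all genes, with a median of -0.04. *Foxl1*, a target gene that marks cells beneath the epithelium, stood at 4.53, 5.92, 8.32 and 9.37 CPM in mitotic cells against 2.01, 2.51, 3.5 and 2.76 CPM, without overlap, at a log2 fold change of 1.48 (SE 0.15, edgeR adjusted p 3.80e-05). After thinning it was 1.00 and did not pass. *Foxf2* (0.28), *Hhip* (0.24) and the receptor *Ptch1* (0.22) were slightly higher, and the coreceptors *Cdon* (-0.29), *Boc* (-0.26) and *Gas1* (-0.18) slightly lower. These small differences depended on the processing: with matched UMIs 6 genes were higher and none lower, and after thinning none was higher and 1 lower, and without the block 1 was higher and none lower. Among 35 *Hox* genes tested, 10 were called between the classes, 5 each way, beside 43.0% of all genes, at values between -0.62 and 1.14 for the whole list and a median of 0.06. Without the block none was called, after thinning 1 was higher and none lower, and with matched UMIs 7 were higher and 1 lower.

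Markers of the neural lineage moved with the classes although cells with *Sox10* or *Prph* were excluded. Of 12 tested, 4 were higher and 1 lower, beside 20.8% and 22.2% of all genes, with a median of 0.24. The list turned round with the comparison cells: with matched UMIs none was higher and 8 of 11 were lower (median -1.46), without S phase 1 was higher and 4 of 11 lower, and after thinning none was higher and 2 of 11 lower. Those higher included *Erbb3* (2.45), *Sox2* (2.13) and *Ednrb* (0.52), genes of crest-derived progenitors, and the lower one was *Phox2a*, of neurons, at -2.46 (0.907 to 3.08 CPM against 3.70 to 14.9 CPM). *Erbb3*, *Sox2* and *Phox2a* lay below 6 CPM in mitotic cells. *Sox2* lost its call with matched UMIs (0.59) and after thinning (1.04), *Ednrb* was at -0.13 with matched UMIs, and *Erbb3* was too low to be tested in either. The markers summed to 179, 215, 223 and 233 CPM in mitotic and to 84.5, 164, 261 and 257 CPM in comparison cells, higher in mitotic cells in LI only, and their part in other results was not tested. Of the remaining marker lists, *Podxl* (-0.97) and *Rspo1* (-0.30) of mesothelium, *Egfl7* (-0.43) of endothelium and *Coro1a* (-0.81) of leukocytes were lower, and none was higher. Without the block none of these 4 passed. Of 10 erythroid markers 2 were tested and neither passed, while 1 of 2 was higher without LI replicate 1 or without SI replicate 2, and 5 of 10 were higher without a filter. They summed to 40.4 CPM in mitotic against 3.05 CPM in comparison cells of SI replicate 1, and to between 2.08 and 9.26 CPM in both classes of the other 3 libraries. Their part in other results was not tested.

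To see whether mitotic cells of SI and LI differed, the 2 libraries of each region were compared. The share of mesenchymal cells that were mitotic was 11.2% and 16.1% in LI and 25.9% and 19.4% in SI with all UMIs. At 3000 UMIs per cell it was 5.28% (95% Wilson interval 4.69% to 5.95%) and 4.45% (3.87% to 5.11%) in LI and 6.28% (5.64% to 6.99%) and 5.18% (4.65% to 5.76%) in SI. SI exceeded LI by 0.863 points, the libraries of the regions overlapped, and the 2-sided exact permutation p was 0.667, where 2 against 2 libraries can give no less than 0.333. They overlapped too with at least 5 genes or doublets left out. With all UMIs, at 2000 UMIs, with at least 3 genes or with smooth muscle cells left out they did not, and the permutation p was 0.333.

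Few genes differed between regions in the mitotic cells. Of 12667 tested, 237 (1.87%) passed, with 91 (0.718%) at a higher level in SI and 146 (1.15%) in LI, and 5672 (44.8%) had libraries that did not overlap between regions. None of 118 mitosis genes was called in either direction, with a median SI to LI log2 fold change of -0.09 beside 0.01 over all genes. None of the 46 replication and 49 histone genes passed. *Ccnb1*, *Ube2c* and the other mitosis genes thus give no regional call, which at 2 libraries a region does not show equal levels.

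Genes of position were among them, with 9 *Hox* genes of the 91 higher in SI and 14 of the 146 higher in LI. *Pitx1*, a hindlimb and hindgut homeobox gene, had 566 and 1008 UMIs in LI and 0 and 1 UMIs in SI mitotic cells, a ratio of 3160 with a counting interval of 566 to 124878. *Hoxd9* (167 and 88.2 CPM in LI against 0.134 and 1.64 CPM in SI, log2 fold change -7.06), *Hoxd10* (112 and 100 CPM against 0 and 2.33 CPM, -6.42), *Hoxa10* (182 and 212 CPM against 0 and 7.93 CPM, -5.55) and *Hoxd11* (249 and 182 CPM against 0 and 9.03 CPM, -5.50) were higher in LI without overlap. Within SI these 4 were nearly all from replicate 2. *Hoxd13* had 52 UMIs in LI and none in SI, at least 34.8-fold higher against a floor of 3 UMIs over the region.

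Of 13 tested *Hox* genes of groups 9 to 13, 12 were higher in LI, with a median of -5.50. Of 22 in groups 1 to 8, 9 were higher in SI and 2 in LI. *Hoxb6* stood at 4.31 and 7.28 CPM in LI and 45.9 and 36.7 CPM in SI (2.87). In comparison cells, where 288 (2.17%) of 13266 genes were called, 93 (0.701%) towards SI and 195 (1.47%) towards LI, the counts were 12 of 13 in LI for groups 9 to 13, and 11 in SI and 5 in LI of 23 for groups 1 to 8. In the test of class by region, which compares these differences, none of 13 genes of groups 9 to 13 was called and 1 of 23 of groups 1 to 8, beside 0.223% of all genes, so that little can be read from these counts. This was *Hoxb4*, at 42.8 and 52.9 CPM in mitotic against 26.0 and 39.1 CPM in comparison cells of LI and at 158 and 127 CPM against 159 and 128 CPM in SI (-0.63, edgeR adjusted p 0.0396), or 0.14 with matched UMIs. *Hoxa10*, *Hoxd10* and *Hoxd11* lost their regional calls under DESeq2, and *Hoxa10* and *Hoxd11* also without LI replicate 1 (-5.66 and -5.25).

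Higher in SI were *Aldh1a2*, which makes retinoic acid, at 319 and 263 CPM against 19.0 and 60.0 CPM (2.95, SE 0.41, edgeR adjusted p 0.00672), the adhesion molecule *Alcam* at 41.2 and 71.8 CPM against 7.25 and 12.1 CPM (2.59), *Pkdcc* at 105 and 87.7 CPM against 7.93 and 28.3 CPM (2.44), *Angptl1* at 65.8 and 58.3 CPM against 11.6 and 17.3 CPM (2.18) and the secreted WNT antagonist *Sfrp1* at 570 and 439 CPM against 136 and 141 CPM (1.96). The LI libraries differed for *Aldh1a2* and *Pkdcc*, whose values were 2.37 and 1.86 without LI replicate 1 and 3.99 and 3.66 without LI replicate 2. *Dlk1* (1.57) and *Lum* (1.34) were the SI genes of the mesenchyme and matrix lists, and *Tnc* (-1.93) and the muscle filament *Des* (-1.66) the LI ones. *Alcam*, *Des*, *Lum* and *Tnc* lost their call without LI replicate 1 (2.31, -1.32, 1.22 and -2.02), and *Tnc* also without LI replicate 2 (-1.85) or SI replicate 1 (-1.51). *Epcam* was lower in SI by -1.14 (SE 0.23, edgeR adjusted p 0.0416), with no overlap of libraries. That call was lost in 6 of 13 alternatives: without LI replicate 1 or SI replicate 2 (-1.06 and -0.95), after thinning (-0.63), with at least 3 or 5 mitotic genes (-1.01 and -1.05) and without a filter (-1.12). Without a filter *Pkdcc*, *Dlk1*, *Des*, *Tnc*, *Hoxa10* and *Hoxd11* also lost their regional calls, *Pkdcc* did so under DESeq2, *Lum* after thinning, *Des* with a replicate block and *Tnc* with at least 3 or 5 mitotic genes.

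**Figure D5:**
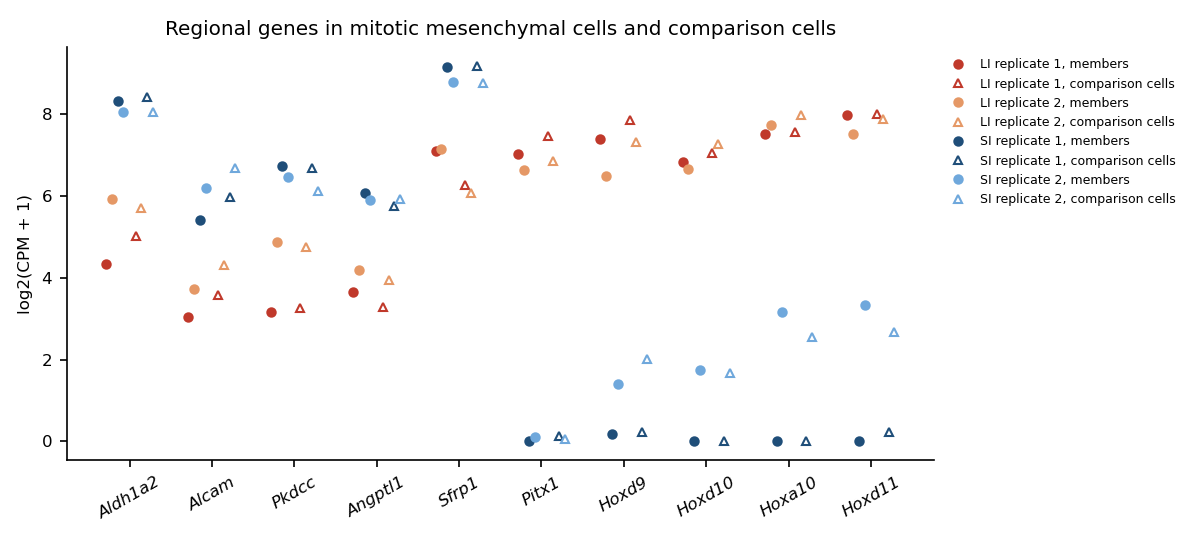
Levels as log2(CPM + 1) (y axis) of 10 genes (x axis) in mitotic cells (filled circles) and comparison cells (open triangles) of each library. *Aldh1a2*, *Alcam*, *Pkdcc*, *Angptl1* and *Sfrp1* are higher in both SI libraries, and *Pitx1* and the 4 *Hox* genes in both LI libraries, in both classes.

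Most regional genes of mitotic cells were regional in comparison cells too. Of 218 genes called in mitotic cells and tested in both classes, 165 (75.7%) were called in comparison cells, all in the same direction. They made up 60.7% of the comparison cell calls among genes tested in both classes. The classes come from the same libraries, so this is not independent.

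Whether the step from comparison to mitotic cells differed between regions was tested as class by region. Of 13443 genes, 30 (0.223%) were called, 9 (0.0669%) shifted towards SI and 21 (0.156%) towards LI in mitotic cells. *Sfrp1* rose in LI from 75.5 and 66.7 CPM to 136 and 141 CPM and in SI stood at 579 and 431 CPM against 570 and 439 CPM (difference on the log2 scale -1.05, SE 0.09, edgeR adjusted p 0.00256). With matched UMIs the difference of *Sfrp1* was 0.28, with the sign turned, and did not pass. *Ccnd1*, cyclin D1, stood in SI at 60.2 and 43.6 CPM in mitotic against 125 and 102 CPM in comparison cells, and in LI at 75.5 and 68.6 CPM against 72.3 and 74.1 CPM (-1.18, SE 0.10, edgeR adjusted p 0.00256). The difference of *Ccnd1* was -0.25 with matched UMIs and -0.55 after thinning, and passed in neither.

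The count of these calls hung on the cells compared. It was 0 with matched UMIs and 0 without the block, 5 after thinning, and between 5 and 540 when 1 library was left out. *Map1b* and *Stmn4*, of neurons, were among the 21, and the neural marker sum moved the same way, higher in mitotic cells in LI and lower in SI. Its part in these calls was not tested. Of 118 mitosis genes, *Ckap2*, a microtubule-associated spindle protein, was called, at 97.5 and 111 CPM against 9.50 and 8.81 CPM in LI and at 82.5 and 102 CPM against 14.6 and 16.6 CPM in SI (-1.04, SE 0.13, edgeR adjusted p 0.0224). With smooth muscle cells left out it was -0.50 and did not pass.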

How the data were processed

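Sorted stromal cells of E12.5 intestine were profiled by 10x droplet sequencing in 2 SI and 2 LI libraries, with a 3′ or 5′ kit (the sources used here do not assign the kits to libraries). The authors aligned reads to mm10 and counted UMIs per gene and barcode with Cell Ranger 3.1.0 (Seurat 3 is also named in the submitters' processing notes), and the deposited values are raw counts for 28692 genes in called cells, without normalization. The per-library depth is given with the data.

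Barcodes with at least 1000 genes and under 10% mitochondrial UMIs were kept. Counts were summed per library and class, since cells are not replicates, and CPM is relative to that sum. The 9 genes of the rule were left out of the tests. edgeR (4.0.16, R 4.3.3) quasi-likelihood tests with TMM normalization and its default filter were used, with library as a block between classes and for class by region, and regions were compared without a block. Benjamini-Hochberg adjusted p under 0.05 was a call, and an SE is the size of the log2 fold change divided by the root of its F statistic. P-values measure the spread between libraries, which pooled several embryos each. Shares were compared by exact permutation tests after thinning to 3000 UMIs. The automatic doublet threshold of Scrublet in scanpy 1.11.5 marked too few cells (2 to 157 per library), so as an alternative the top scores were left out at 0.8% per 1000 cells. DESeq2 1.42.0 and the other alternatives are in the closing section. SciPy 1.17.1, NumPy 2.4.6 and pandas 2.3.3 under Python 3.11.15 were used. Replicates differed by more than counting noise (chi-square per degree of freedom 15.5 in LI and 13.6 in SI), so no pair was counted as 1 sample.

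On simulated counts with 200 changed genes, changes of 1 and 2 on the log2 scale were recovered in 93% and 100% between classes (12987 genes), 64% and 99% between regions (12605) and 10% and 79% for class by region (13295). False calls numbered 14, 13 and 1. Each gene was drawn from 1 mean over all libraries with the same fixed spread, and the changed genes all had over 200 UMIs. Differences between the real libraries were not simulated, so these rates do not give the power of these data.

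The members and lists were chosen with earlier results of these data known. Named genes were the rule's and requested genes, up to 4 called genes per list with the largest change (or all where 5 or fewer were counted), the 10 with the largest change each way between classes and 5 each way between regions at a mean log2 CPM over 5, and the 5 with the smallest adjusted p for class by region. *Mybl2*, *Pttg1*, *Anapc4*, *Hoxb6*, *Dlk1*, *Lum*, *Map1b*, *Stmn4*, *Bmp3*, *Chek2* and *Ckap2* were added after their values were seen. Gene positions come from GENCODE vM21 and promoters from RefSeq on GRCm38.p6. Promoter entries for *Hist1h2bc* and *Hist1h1c* were not used here, and 2 named genes are not reported here.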

Additional observations from a re-analysis of the deposited data

Results flagged for a closer look

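The difference between mitotic and comparison cells itself differed between SI and LI for 30 genes by edgeR's test of class by region. Those named are given as the log2 fold change in SI minus that in LI, each with an adjusted p under 0.05. It was 2.08 for *Bmp3*, a ligand of the BMP family (7.65 and 15.2 CPM in SI mitotic cells, 3.95 and 5.42 CPM in SI comparison cells), while in LI it stood at 2.72 and 3.98 CPM in mitotic cells, from 12 and 41 UMIs, against 5.80 and 6.85 CPM in comparison cells. The other named genes lay on the LI side: *Stmn4* at -2.57, *Ccnd1* at -1.18, *Chek2*, a checkpoint kinase, at -1.17, *Sfrp1* at -1.05, *Ckap2* at -1.04, *Map1b* at -0.85, *Tmsb4x*, thymosin beta 4, at -0.71 and *Hoxb4* at -0.63. The sign turned with matched UMIs for *Sfrp1* (0.28), *Hoxb4* (0.14) and *Tmsb4x* (0.0079), and after thinning for *Map1b* (0.089). Others became smaller and did not pass: *Stmn4* at -0.17 after thinning, *Ccnd1* at -0.25 and *Bmp3* at 1.16 with matched UMIs, and *Ckap2* at -0.50 with smooth muscle cells left out. *Chek2* lay between -1.55 and -0.78 over the alternatives. With matched UMIs or without the block no gene was called, so all those named, *Chek2* included, lost their calls there. With 4 libraries the count moved widely, as given in the next part.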

How the results depend on the processing

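Against 2669 genes higher in mitotic cells there were 1713 with matched UMIs, 778 without the replicate block and 971 after thinning, and 2167 to 2534 without 1 library. Against 2843 lower there were 1523 by DESeq2, 752 without the replicate block and 775 after thinning, and 1912 to 2346 without 1 library. The 237 regional genes became 111 without a filter, 89 after thinning and 374 with a replicate block. Same-numbered libraries deviated together only weakly (r 0.29 in mitotic and 0.43 in comparison cells) and share only a number. Without 1 library they were 109 (LI replicate 1) to 501 (LI replicate 2). The 30 genes for class by region became 10 by DESeq2, 4 and 10 with at least 3 or 5 mitotic genes, 46 without *Epcam*+ cells (chosen after seeing the data), 0 with matched UMIs, 182 without S phase, 277 without a filter, 0 without the replicate block and 5 after thinning, and without 1 library 5 (SI replicate 1), 6 (SI replicate 2), 113 (LI replicate 2) and 540 (LI replicate 1). The share difference of 0.863 points was 2.90 and 0.0607 with at least 3 or 5 genes and 9.03 without thinning, and 0.31 to 1.42 without 1 library. That of smooth muscle cells was -0.79 at 2000 UMIs and -2.45 to -1.60 without 1 library. The causes were not tested.

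Of the values under alternatives for single named genes, 1361 between classes kept direction and side of the threshold, 98 lost the call, 4 gained it and 14 changed sign. Between regions 180 kept it and 28 lost it, and for class by region 90 kept it, 50 lost it and 4 changed sign. With matched UMIs *Cdon* (0.081), *Ednrb* (-0.13), *Gas1* (0.28), *Hist3h2ba* (0.087), *Mybl2* (-0.42), *Vcan* (-0.038) and *Zeb2* (-0.22) changed sign, as did *Hoxb4* (0.14), *Sfrp1* (0.28) and *Tmsb4x* (0.0079) for class by region. Without S phase these were *Ccne2* (0.64), *Cdc6* (1.69) and *Chaf1b* (0.25). After thinning they were *Boc* (0.027), *Gas1* (0.048), *Hhip* (-0.17), *Mybl2* (-0.34) and, for class by region, *Map1b* (0.089). DESeq2 size factors changed no sign among these. The shallow LI replicate 1 limits low genes in LI.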
